A study of Mus musculus with 4 samples.

Results

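Blood vessel endothelial cells were picked out of single-cell RNA libraries of the tibial muscle of Nse-Bmp4 mice by the UMI counts (counts of distinct captured RNA molecules) of a few genes. A barcode (a droplet taken to hold 1 cell) was selected when mitochondrial genes gave no more than 10% of its UMIs, when Cdh5, Cldn5, Emcn and Kdr together had 3 or more UMIs, and when Ptprc, Prox1 and Pax7 had none. The rule selected 376 of 59824 barcodes within the mitochondrial limit, or 0.629%, out of 62665 deposited barcodes. All mice were C57BL/6, 6-8 week old, and carried the Nse-Bmp4 transgene, in which a promoter active in nerve cells drives Bmp4 and bone forms in muscle after injury. The 4 libraries held uninjured muscle and muscle taken 1, 3 or 7 days after injury (dpi) by cardiotoxin, a snake venom toxin that kills muscle fibres. Each library was 1 pool of 3 tibial muscles digested with collagenase, and no library came from mice without the transgene. With 1 library at each time point there was no replicate, so no test was possible, and a difference between 2 time points compared 2 libraries. Intervals are exact 95% intervals and cover counting error only.

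Endothelial cells line every blood vessel. Cdh5 (VE-cadherin) and Cldn5 join them to each other, Kdr is their main receptor for VEGF, and Emcn is a surface sialomucin of capillaries and veins. In skeletal muscle, capillary endothelium takes up fatty acids for the fibres through Cd36, Gpihbp1 and Fabp4, arterial endothelium carries Notch ligands and connexins, and new vessels grow from sprouts that lay down basement membrane as they extend. Ptprc marks leukocytes, Prox1 lymphatic endothelium and Pax7 satellite cells, and barcodes with a UMI of any of the 3 were left out, although cells of those kinds without such a UMI could stay.

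The libraries held 12031, 11722, 15160 and 23752 barcodes from uninjured muscle and from 1, 3 and 7 dpi. The selected cells numbered 44 in uninjured muscle, 74 at 1 dpi, 117 at 3 dpi and 141 at 7 dpi. Their share of the barcodes within the mitochondrial limit was 0.372% in uninjured muscle (0.270% to 0.499%), 0.682% at 1 dpi (0.536% to 0.855%), 0.829% at 3 dpi (0.686% to 0.992%) and 0.612% at 7 dpi (0.516% to 0.722%). Among all selected cells the share was lowest in uninjured muscle and highest at 3 dpi, and neighbouring intervals overlapped except between uninjured muscle and the others. Of the barcodes without a Ptprc UMI, the selected cells made up 0.424%, 1.43%, 1.32% and 0.725%. In cells thinned to 2000 UMIs the shares were 0.186%, 0.587%, 0.506% and 0.440%. Thinning left out 556, 968, 3045 and 6906 shallower barcodes, so the totals behind these shares changed unequally. Both without Ptprc and after thinning, 1 dpi stood highest and the order of 1 and 3 dpi turned. Digestion could bear on all these shares, and the number of leukocytes in each pool on those not limited to barcodes without Ptprc. Their part in the differences was not tested. Summed over the selected cells, the libraries gave 326447, 361802, 578720 and 933485 UMIs, with a median of 4552.5, 4217.5, 3140 and 4264 UMIs a cell. No barcode sequence of a selected cell occurred among the selected cells of another library.

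The label was checked against genes the rule did not use. Pecam1, an adhesion molecule of endothelial junctions, had a UMI in 299 of the 376 cells (79.5%), and Egfl7, a secreted endothelial protein, had one in 281 (74.7%). Neither gene had a UMI in 52 cells. The selected cells were also a mixture. The 7 mesenchymal markers, of which Dcn or Col1a1 was the most abundant, summed to 34931 CPM (UMIs scaled to a total of 1000000) in uninjured muscle, 3137 CPM at 1 dpi, 12522 CPM at 3 dpi and 22847 CPM at 7 dpi. A list of 23 endothelial identity genes such as Pecam1, Tie1 and Flt1 summed to 5545, 13847, 9239 and 5258 CPM. The mesenchymal sum was lowest and the identity sum highest in the same library, that of 1 dpi.

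The selected cells were therefore also split, by a choice made after their values were seen, into 241 cells with more UMIs of the 23 identity genes than of the 7 mesenchymal markers and 135 other cells. The first group, called endothelial-dominant cells here, held 27 of the 44 cells of uninjured muscle (61.4%), 64 of 74 at 1 dpi (86.5%), 92 of 117 at 3 dpi (78.6%) and 58 of 141 at 7 dpi (41.1%). The identity genes summed to 14779 CPM in the 241 cells and the mesenchymal markers to 631 CPM. By library the mesenchymal markers had 335, 238, 755 and 1002 CPM in the 241 cells, with a UMI in 17 of 27, 40 of 64, 71 of 92 and 55 of 58 of them. In the 135 other cells the mesenchymal markers stood far above the identity genes, and their median depth was larger, at 12736, 5883.5, 9391 and 5798 UMIs against 2723, 3717.5, 2539 and 2909 UMIs. The split used the identity and mesenchymal genes, so those genes support nothing about the 241 cells. Pecam1, which like Egfl7 is among those identity genes and so is no check on the split, had a UMI in 91.7% of the 241 cells. Of the 376 cells, 16 lay within a factor of 2 of the dividing line. Of the 65 cells at the rule's limit of 3 UMIs, 15 were endothelial-dominant, and of the 138 barcodes just outside it with 2 UMIs, 20 were of that kind. As shares of all barcodes within the limit, endothelial-dominant cells made up 0.228%, 0.590%, 0.652% and 0.252%. Here the intervals of uninjured muscle (0.150% to 0.332%) and 7 dpi (0.191% to 0.326%) overlapped, unlike those of all selected cells. Most levels below are from endothelial-dominant cells, with those of all selected cells beside some of them.

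**Figure D1:**
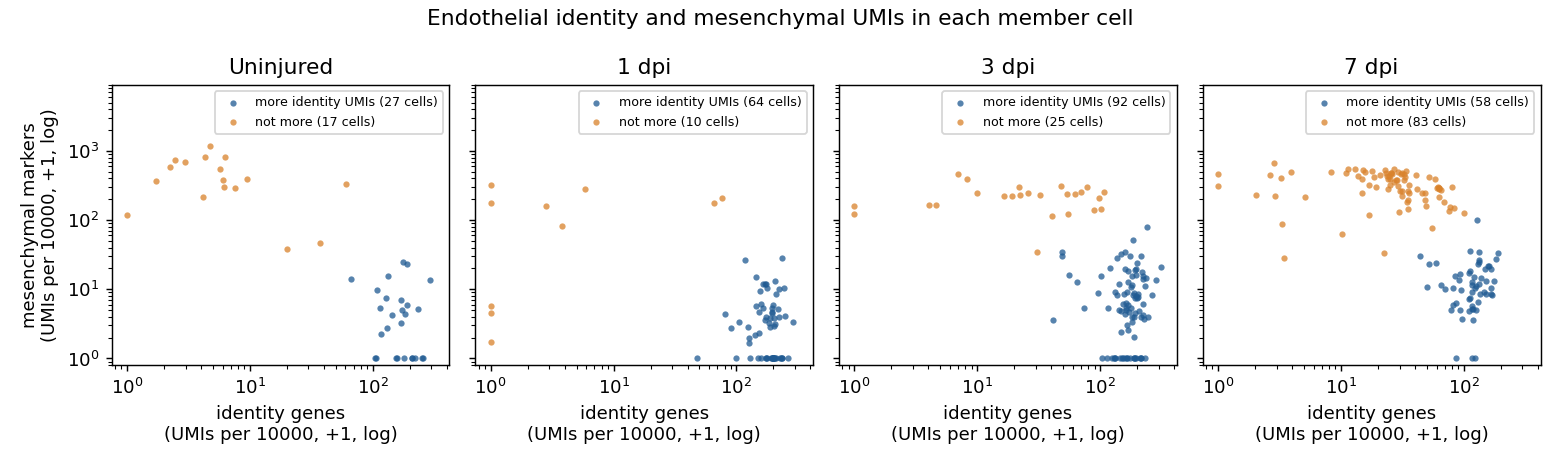
Each point is 1 of the 376 selected cells, placed by its UMIs of the 23 identity genes and of the 7 mesenchymal markers per 10000 UMIs plus 1, on log axes, with a panel for each library. The 241 endothelial-dominant cells make up 86.5% of the selected cells at 1 dpi and 41.1% at 7 dpi.

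**Figure D2:**
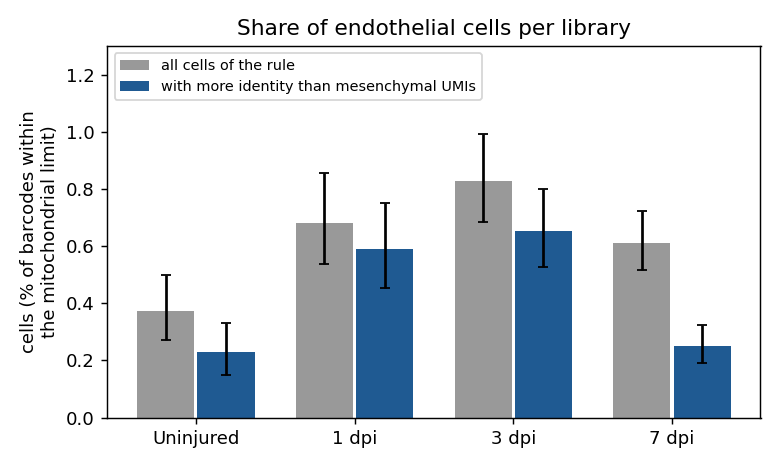
Share of barcodes within the mitochondrial limit (percent, vertical axis) in each library for all selected cells and for endothelial-dominant cells, with exact 95% binomial intervals. All selected cells run from 0.372% in uninjured muscle to 0.829% at 3 dpi, and endothelial-dominant cells end at 0.252% at 7 dpi.

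Other cell types left traces that differed between libraries. The 7 pericyte markers summed to 220, 1315, 347 and 1280 CPM in endothelial-dominant cells, with Rgs5 as the most abundant, and 40 of the 241 cells held 3 or more UMIs of mural genes. The 6 smooth muscle markers summed to 211, 158, 241 and 1126 CPM, led at 7 dpi by Acta2, which had 186 UMIs in 18 cells. The 7 cartilage markers summed to 37, 111, 102 and 1405 CPM in all selected cells and to 9.58, 3.51, 35.4 and 230 CPM in endothelial-dominant cells. The 32 selected cells with 3 or more UMIs of Col2a1 and Acan all came from 7 dpi, as did 11 cells with mast cell genes. The 9 myeloid markers summed to 19.2, 305, 131 and 37.8 CPM in endothelial-dominant cells. Ccl21a, a lymphatic chemokine, led the lymphatic list at 1 and 3 dpi from 1 and 2 cells. The part that these other cells played in the differences below was not tested.

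Genes that set the selected cells apart in every library were ranked by the lowest ratio, over the 4 libraries, of their CPM in selected cells to that in all other barcodes. The 10 highest were Sox17, Tie1, Gpihbp1, C1qtnf9, Gja5, Dll4, Podxl, Gkn3, Ptprb and Ushbp1. Sox17, a transcription factor of arterial endothelium, had 116, 271, 164 and 142 CPM in the selected cells of uninjured muscle, 1, 3 and 7 dpi, and its ratio to the other barcodes was 462 or higher in every library. Tie1, an endothelial receptor tyrosine kinase, had 119, 265, 188 and 159 CPM and a ratio of 297 or higher. In endothelial-dominant cells both genes moved little between libraries, with 354, 330, 283 and 295 CPM of Sox17 and 335, 326, 333 and 333 CPM of Tie1. These ratios follow from the choice of the cells and are a description.

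Clustering of the selected cells by their variable genes gave 7 clusters. A cluster of 113 cells, 111 of them endothelial-dominant, had Timp4, Cd36, Gpihbp1 and Car4 among its leading genes and was capillary-like. A cluster of 97 cells, 95 of them endothelial-dominant, was led by Cytl1, Gkn3 and Gja5 and was arterial-like. A cluster of 38 cells, 34 of them endothelial-dominant, mixed lymphatic (Ccl21a, Lyve1), venous (Lrg1, Selp) and pericyte (Rgs5, Kcnj8) genes and was left unnamed. The other 4 clusters, of 75, 31, 15 and 7 cells, held 1 endothelial-dominant cell among them and were led by genes of cartilage, of Sfrp5 and Angptl7 positive cells, of mast and myeloid cells, and of tendon. The libraries filled these clusters unequally: uninjured muscle, 1, 3 and 7 dpi gave 13, 34, 32 and 34 cells of the capillary-like, 12, 25, 55 and 5 of the arterial-like and 3, 5, 7 and 23 of the mixed cluster. No venous-like cluster stood apart at this resolution. At a resolution of 1, which gave 10 clusters, Cytl1 was instead among the leading genes of a cluster of 37 cells with Vwf and Vcam1. An arterial-like cluster of 64 cells stood apart from it, with Sema3g but not Gkn3 or Gja5 among its 10 leading genes. The extent of the arterial-like cluster and the place of Cytl1 in it thus depended on the resolution.

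The balance of arterial and capillary genes was then read in endothelial-dominant cells thinned to 1000 UMIs each, which left out 3, 4, 4 and 3 shallower cells. The genes of each gate were chosen after their values were seen. A UMI of the arterial genes Gja5, Sema3g, Gkn3 or Bmx was found in 58.3% of cells in uninjured muscle (36.6% to 77.9%), 46.7% at 1 dpi (33.7% to 60.0%), 62.5% at 3 dpi (51.5% to 72.6%) and 12.7% at 7 dpi (5.27% to 24.5%). A UMI of the capillary genes Gpihbp1, Cd36, Car4 or Timp4 was found in 54.2% (32.8% to 74.4%), 60.0% (46.5% to 72.4%), 40.9% (30.5% to 51.9%) and 78.2% (65.0% to 88.2%) of them. The 7 dpi library had the lowest arterial and the highest capillary share, which restates the levels of genes chosen with those levels known. Without thinning, the arterial shares were 63.0%, 56.2%, 67.4% and 25.9% and the capillary shares 70.4%, 78.1%, 53.3% and 89.7%. In mesenchymal cells (barcodes with 2 or more UMIs of Pdgfra and Prrx1 and none of the rule genes or Ptprc), thinned alike, the arterial share was at most 0.144% and the capillary share at most 0.501% in any library.

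At 1 dpi against uninjured muscle, Cdkn1a and Apold1 were among the genes with the largest ratios in endothelial-dominant cells, and Cd36 was also higher. Cdkn1a, the cell cycle inhibitor p21, had 172 CPM in uninjured muscle (9 of 27 cells with a UMI), 1098 CPM at 1 dpi (56 of 64 cells), 1141 CPM at 3 dpi (79 of 92 cells) and 172 CPM at 7 dpi (20 of 58 cells). It was high at 1 and 3 dpi and low in the other 2 libraries, and 1 dpi exceeded uninjured muscle 6.37-fold (3.96 to 10.9). Apold1, an early response gene of endothelial cells, had 115, 642, 351 and 158 CPM and was 5.58-fold higher (3.119 to 11.003). Cd36, the fatty acid translocase, had 565 CPM in uninjured muscle, 1606 CPM at 1 dpi, 549 CPM at 3 dpi and 982 CPM at 7 dpi, 2.84-fold higher at 1 dpi (2.16 to 3.79) and then 2.92-fold lower at 3 dpi (2.43 to 3.53). Lpl, the lipase that Gpihbp1 holds on the capillary wall, was 2.73-fold higher at 1 dpi (1.53 to 5.31). The peak of Cd36 was present in all selected cells too, at 199, 1282, 332 and 446 CPM.

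Klf4, a transcription factor induced by laminar flow, had 795, 1953, 1584 and 453 CPM in endothelial-dominant cells, 2.46-fold higher at 1 dpi (1.95 to 3.13) and 3.495-fold lower at 7 dpi than at 3 dpi (2.87 to 4.28). Adamts1, a secreted protease, was 3.14-fold higher at 1 dpi (2.41 to 4.14), and Ets1, a transcription factor of angiogenesis, 3.29-fold higher (1.81 to 6.57). Rgs5 was 4.30-fold higher at 1 dpi (2.80 to 6.90) with 270 UMIs in 20 cells, and it is also the leading pericyte marker. On the lower side, Ptn, a heparin-binding growth factor, had 72 UMIs from 2 cells in uninjured muscle and 44 from 1 cell at 1 dpi, and Igfbp7, an angiocrine binding protein, was 2.59-fold lower (2.14 to 3.13).

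In all, 43 of 599 genes with 100 or more UMIs over both libraries (7.18%) were at least 2-fold higher in endothelial-dominant cells at 1 dpi, and 21 (3.51%) at least 2-fold lower. These cells held 104385 UMIs in uninjured muscle and 285154 at 1 dpi. The filter thus asked a higher level of genes lower at 1 dpi, so the 2 counts are not on equal terms. Of the 19 identity genes that passed this filter, 1 (Cyyr1) was higher and none lower. Of 7 capillary genes, Cd36 was higher and Tcf15, a transcription factor of fatty acid uptake, lower. Of 6 fatty acid transport genes, 2 (Cd36 and Lpl) were higher and 1 (Tcf15) lower. Of 14 immediate early and dissociation genes, Nr4a1 alone was higher. In all selected cells, 202 of 1111 genes (18.2%) were at least 2-fold higher and 163 (14.7%) at least 2-fold lower. There 14 of 19 identity genes were higher, with Pecam1 at 603 CPM in uninjured muscle and 1617 CPM at 1 dpi, whereas in endothelial-dominant cells it had 1763 and 1995 CPM. All 5 mesenchymal markers tested were at least 2-fold lower in the same comparison.

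At 3 dpi against 1 dpi the endothelial-dominant cells differed in few genes. Of 898 genes, 17 (1.89%) were at least 2-fold higher and 18 (2%) at least 2-fold lower. Nos3, the endothelial nitric oxide synthase, had 163, 217, 471 and 113 CPM over the 4 libraries, 2.17-fold higher at 3 dpi (1.59 to 2.98) and 4.16-fold lower at 7 dpi (2.82 to 6.29). Hbegf, a ligand of the EGF receptor, had 105, 109, 482 and 134 CPM and was 4.43-fold higher at 3 dpi (2.98 to 6.78). Gja4, an arterial connexin, was 2.75-fold higher (1.78 to 4.37) and Col18a1, the collagen that endostatin is cut from, 2.19-fold higher (1.51 to 3.21). Nos3 and Hbegf were thus highest at 3 dpi, and their UMIs came from 49 and 32 of the 92 cells.

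On the lower side at 3 dpi stood genes of fatty acid handling. The capillary-like cluster held 34 cells at 1 dpi and 32 at 3 dpi, and the arterial-like cluster 25 and 55. The part of this change in makeup in the genes higher and lower at 3 dpi was not tested. Of 7 fatty acid transport genes tested, 3 (Cd36, Fabp5 and Meox2) were at least 2-fold lower and none higher, and of 8 capillary genes 2 (Cd36 and Meox2) were lower. Gpihbp1, which anchors lipoprotein lipase, had 480 CPM at 1 dpi and 255 CPM at 3 dpi, 1.88-fold lower (1.41 to 2.54). None of the 21 identity genes passed 2-fold in either direction. In all selected cells, 165 of 1586 genes (10.4%) were at least 2-fold higher and 83 (5.23%) at least 2-fold lower, with 6 of 8 capillary genes lower and all 5 mesenchymal markers tested higher.

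**Figure D3:**
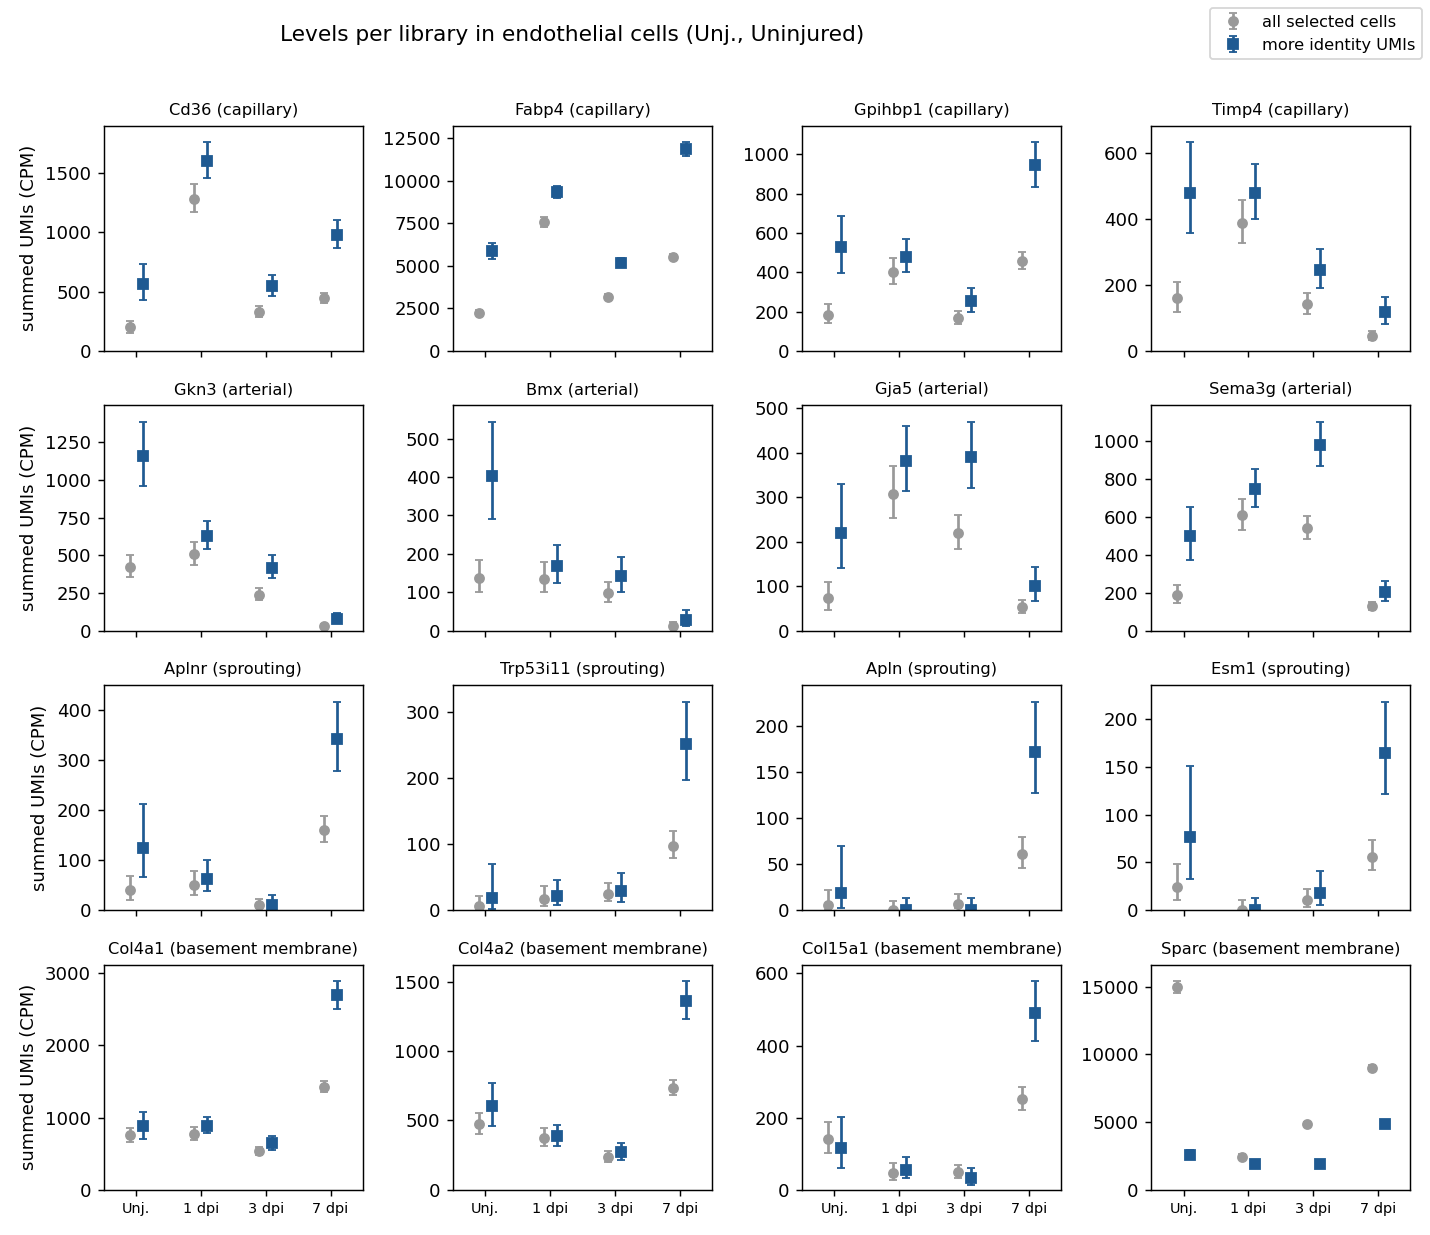
Summed UMIs of 16 genes in CPM (vertical axes, each from 0) in each library, for all selected cells and endothelial-dominant cells, with exact 95% Poisson intervals. Gkn3 and Bmx are lowest and Aplnr, Col4a1 and Col15a1 highest at 7 dpi in endothelial-dominant cells, while Cd36 peaks at 1 dpi. Aplnr is drawn with the sprouting genes but belongs to the receptor list.

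The comparison of 7 dpi with 3 dpi gave the most differences between successive libraries in endothelial-dominant cells. Of 912 genes, 76 (8.33%) were at least 2-fold higher and 114 (12.5%) at least 2-fold lower at 7 dpi. In these cells most of the arterial genes tested were lower, and most of the fatty acid transport and basement membrane genes tested were higher. In all selected cells, 132 of 2485 genes (5.31%) were higher and 205 (8.25%) lower, and there 4 of 8 arterial genes were lower, 3 of 8 fatty acid transport genes were higher and 1 (Lpl) lower, and 3 of 11 basement membrane genes (Col4a1, Col4a2 and Col15a1) were higher with none lower.

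Of the 8 arterial genes tested, 5 were at least 2-fold lower at 7 dpi (Gja5, Sema3g, Efnb2, Jag1 and Gkn3) and none higher, with a median log2 ratio of -1.52 against 0.05 over all genes tested. The arterial-like cluster held 55 cells at 3 dpi and 5 at 7 dpi, so fewer arterial-like cells and less of these RNAs per cell cannot be told apart in these sums. Gkn3, a secreted protein found in arterial endothelium, had 1159 CPM in uninjured muscle, 628 CPM at 1 dpi, 418 CPM at 3 dpi and 75.5 CPM at 7 dpi. Its 22 UMIs at 7 dpi came from 3 of 58 cells, and it was 5.54-fold lower than at 3 dpi (3.49 to 9.17). Sema3g, an arterial semaphorin, had 498, 747, 978 and 203 CPM and was 4.83-fold lower (3.63 to 6.51). Gja5, which encodes connexin 40, had 220, 382, 390 and 99.5 CPM and was 3.92-fold lower (2.58 to 6.12). Bmx, an arterial tyrosine kinase with too few UMIs to be counted above, had 402, 168, 142 and 27.5 CPM. These 4 genes were lowest at 7 dpi. Gja4, also in the arterial list, was not: it had 345, 102, 280 and 319 CPM, with UMIs in 13 of 58 cells at 7 dpi, and a ratio of 1.14 to 3 dpi (0.836 to 1.56).

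Cytl1 and Mgp were also lower at 7 dpi, with the same change in the makeup of the cells. Cytl1, a small cytokine-like protein that led the arterial-like cluster at the lower resolution only, had 1475, 1364, 2437 and 78.9 CPM in endothelial-dominant cells and was 30.9-fold lower at 7 dpi (20.4 to 49.0). Mgp, the matrix Gla protein that binds BMPs and hinders calcification of vessel walls, had 7242, 5236, 9296 and 590 CPM and was 15.7-fold lower (13.5 to 18.5). Cytl1 had UMIs in 38 of 92 cells at 3 dpi and 3 of 58 at 7 dpi. Of 6 flow response genes, 4 were at least 2-fold lower (Klf2, Klf4, Nos3 and Thbd) and none higher, and of 3 Notch pathway genes Notch1 and Jag1 were lower. Of 14 immediate early and dissociation genes, 5 were lower, among them Hspa1a, a heat shock protein, at 1638, 1873, 1920 and 505 CPM. Cdkn1a, high at 1 and 3 dpi, was 6.65-fold lower (4.92 to 9.14).

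Of 6 fatty acid transport genes tested, 4 (Fabp4, Fabp5, Gpihbp1 and Tcf15) were at least 2-fold higher at 7 dpi and none lower, and of 7 capillary genes 3 (Gpihbp1, Fabp4 and Tcf15) were higher and 1 (Timp4) lower. The capillary-like cluster held 32 cells at 3 dpi and 34 at 7 dpi, and the arterial-like cluster 55 and 5. More capillary-like cells among the endothelial-dominant ones and more of these RNAs per cell cannot be told apart in these sums. Gpihbp1 had 527, 480, 255 and 944 CPM and was 3.70-fold higher at 7 dpi (2.85 to 4.87). Fabp5, a fatty acid binding protein, had 316, 582, 220 and 1160 CPM and was 5.28-fold higher (4.02 to 7.04). Fabp4 had 5872, 9353, 5183 and 11876 CPM and was 2.29-fold higher (2.16 to 2.44). Timp4, a protease inhibitor of capillary endothelium, ran the other way, at 479, 477, 244 and 117 CPM. Fabp4, Fabp5 and Gpihbp1 were thus highest at 7 dpi and Cd36 at 1 dpi, while Timp4 was about equal in uninjured muscle and at 1 dpi. Scarb1, a lipoprotein receptor outside these lists, was 6.72-fold higher (3.89 to 12.4). In all selected cells the order of 2 of these genes turned. There Fabp4 had 7570 CPM at 1 dpi and 5545 CPM at 7 dpi, and Fabp5 694 and 628 CPM. Gpihbp1 was highest at 7 dpi there too, at 457 CPM against 404 CPM at 1 dpi.

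Of 8 basement membrane genes, 6 were at least 2-fold higher at 7 dpi (Col4a1, Col4a2, Nid1, Hspg2, Col15a1 and Sparc) and 1 (Lamb2) lower, with a median log2 ratio of 1.39 against 0.05 over all genes tested. Col4a1, the first chain of collagen IV, had 881 CPM in uninjured muscle (19 of 27 cells), 887 CPM at 1 dpi (53 of 64), 648 CPM at 3 dpi (70 of 92) and 2691 CPM at 7 dpi (57 of 58), 4.15-fold higher than at 3 dpi (3.53 to 4.90). Col4a2, its partner chain, had 604, 386, 273 and 1363 CPM and was 5.00-fold higher (3.90 to 6.46). Both genes were lowest at 3 dpi and highest at 7 dpi. In mesenchymal cells Col4a1 went the other way, at 1330, 1125, 541 and 242 CPM. Col15a1, which links basement membrane to the matrix around it, had 115, 56.1, 31.9 and 491 CPM and was 15.4-fold higher (7.89 to 34.4). Sparc, a matricellular protein that binds collagen IV, was 2.51-fold higher in endothelial-dominant cells (2.28 to 2.78). In all selected cells Sparc had 14967, 2449, 4857 and 8999 CPM, highest in uninjured muscle, while Col4a1 was highest at 7 dpi with 757, 777, 534 and 1429 CPM. The mesenchymal markers in endothelial-dominant cells were also highest at 7 dpi, with Col1a1 at 57.5, 28.1, 128 and 330 CPM. In mesenchymal cells at 7 dpi, Col15a1 had 95.3 CPM, below the endothelial-dominant level, and Sparc 12073 CPM, above it. Pericyte markers in endothelial-dominant cells had 347 CPM at 3 dpi and 1280 CPM at 7 dpi. Smooth muscle markers had 241 and 1126 CPM there. The part of mesenchymal, pericyte and smooth muscle RNA in these differences was not tested. Nor was that of the smaller share of arterial-like cells at 7 dpi.

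Col4a1 and Col4a2 lie head to head on chromosome 8 and are read in opposite directions from starts 21 bases apart. Col4a1 runs from 11198423 to 11312826 on the minus strand and Col4a2 from 11312805 to 11449287 on the plus strand (GRCm38, RefSeq). Their RefSeq promoter windows, from 250 bases before to 50 after each start, are shown because both genes moved together at 7 dpi. The window of Col4a1 is chr8:11312777-11313076 on the minus strand and that of Col4a2 is chr8:11312555-11312854 on the plus strand. Each is written 5′ to 3′ on its own strand, and capitals mark the 78 bases that the windows share as reverse complements.
Col4a1: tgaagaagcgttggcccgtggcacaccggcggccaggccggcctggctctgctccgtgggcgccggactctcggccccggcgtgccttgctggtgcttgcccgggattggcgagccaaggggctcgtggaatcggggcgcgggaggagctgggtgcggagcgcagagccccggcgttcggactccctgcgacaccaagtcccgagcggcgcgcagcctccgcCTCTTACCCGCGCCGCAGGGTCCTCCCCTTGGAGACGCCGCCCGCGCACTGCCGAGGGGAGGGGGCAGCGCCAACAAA
Col4a2: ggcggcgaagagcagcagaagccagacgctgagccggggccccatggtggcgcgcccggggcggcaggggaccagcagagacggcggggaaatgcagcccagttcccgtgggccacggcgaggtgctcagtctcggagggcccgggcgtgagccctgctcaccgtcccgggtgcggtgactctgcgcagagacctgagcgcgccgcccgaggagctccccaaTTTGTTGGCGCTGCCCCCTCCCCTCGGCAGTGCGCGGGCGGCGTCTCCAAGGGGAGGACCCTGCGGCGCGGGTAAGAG

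Of the 12 tip and sprouting genes, only 2 had enough UMIs in endothelial-dominant cells at 7 against 3 dpi, of which 1 (Plvap) was at least 2-fold higher, and against uninjured muscle the 1 tested lay within 2-fold. Aplnr, the receptor of apelin, is not in this list but in that of VEGF, angiopoietin and related receptors. It had 125 CPM in uninjured muscle (5 of 27 cells), 63.1 CPM at 1 dpi (8 of 64), 10.6 CPM at 3 dpi (3 of 92) and 343 CPM at 7 dpi (36 of 58). Its 100 UMIs at 7 dpi against 3 at 3 dpi gave a ratio of 32.3 (10.7 to 159). Against uninjured muscle the ratio was 2.76 (1.54 to 5.36). Aplnr had a UMI in 0.286% of mesenchymal cells at 7 dpi. Trp53i11, a gene induced by p53, had 19.2, 21.0, 28.3 and 251 CPM, with UMIs in 1, 6, 8 and 29 cells, and had a ratio of 8.84 at 7 against 3 dpi (4.26 to 21.2), on fewer UMIs than the filter of 100. Plvap, which forms the diaphragms of fenestrae and caveolae, had 460, 126, 216 and 697 CPM and was 3.22-fold higher (2.41 to 4.37). Uninjured muscle came second for Aplnr and Plvap.

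The sprouting ligands were under the filter of 100 UMIs and rested on few cells. Apln, the apelin ligand of tip cells, had 2, 0, 0 and 50 UMIs in endothelial-dominant cells, with the 50 UMIs in 6 cells, and was at least 16.1-fold higher at 7 dpi than the limit of 3 UMIs allowed at 3 dpi. Esm1, a tip cell proteoglycan, had 8, 0, 5 and 48 UMIs, and Angpt2, which loosens vessels by blocking Tek, 4, 2, 2 and 26 UMIs. In cells thinned to 1000 UMIs, a UMI of Apln, Esm1, Angpt2 or Trp53i11 was found in 20.8% of cells in uninjured muscle (7.13% to 42.2%), 5.0% at 1 dpi (1.04% to 13.9%), 4.5% at 3 dpi (1.25% to 11.2%) and 32.7% at 7 dpi (20.7% to 46.7%). The shares were 22.2%, 12.5%, 11.96% and 58.6% without thinning, and at most 1.95% in thinned mesenchymal cells. These genes too were chosen with their levels known, so the shares only show how many cells carried the UMIs, and the interval of 7 dpi overlapped that of uninjured muscle.

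Proliferation genes were low in all libraries. The 16 genes summed to 144, 175, 252 and 800 CPM in endothelial-dominant cells, 3.18-fold higher at 7 than at 3 dpi (2.43 to 4.21), with Pcna as the most abundant. Top2a, a topoisomerase of dividing cells, had 2, 3, 3 and 30 UMIs, the last in 9 cells, and Mki67 had 0, 1, 2 and 26 UMIs, the last in 4 cells. A UMI of Mki67, Top2a, Cdk1 or Ube2c was found in 0 of 24 thinned cells in uninjured muscle. By the limit of 3 counts this allows a share of cells with a UMI of up to 12.5%, and the exact interval reaches 14.2%. At 1, 3 and 7 dpi the thinned shares were 3.3%, 3.4% and 7.3%. Unthinned, the shares were 7.4%, 7.8%, 5.4% and 22.4%. Thinned mesenchymal cells had 1.84%, 2.91%, 13.5% and 18.4%, so none of the endothelial shares stood above the level in these cells by more than the counting error, and that of 3 dpi (0.709% to 9.64%) lay below it. The 7 dpi share had an interval of 2.02% to 17.6%, which lay below the mesenchymal share of 18.4% but met its interval of 17.5% to 19.3%.

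Receptors differed among themselves at 7 against 3 dpi. Of 8 VEGF, angiopoietin and related receptors tested in endothelial-dominant cells, 4 were at least 2-fold lower (Flt1, Tek, Ptprb and S1pr1) and 1 (Aplnr) higher. Flt1, a decoy receptor for VEGF, had 1159, 1834, 1516 and 686 CPM and was 2.21-fold lower (1.86 to 2.63). Ptprb, the phosphatase that restrains Tek and Cdh5, had 1772, 2392, 2547 and 820 CPM and was 3.11-fold lower (2.68 to 3.61). Nrp1, a VEGF co-receptor, lay within 2-fold, with a ratio of 1.01 (0.772 to 1.33). Of 21 identity genes, 6 were lower and none higher, which is a description since these genes chose the cells. Of 7 secreted angiocrine genes, Igfbp7 and Cxcl12 were higher and Igfbp3 lower, and Igfbp7 was 10.4-fold higher (8.74 to 12.4), with UMIs in 54 of 58 cells. Of 5 genes of mesenchymal transition, Acta2, which encodes smooth muscle actin, was higher, and Fn1 and S100a4 were lower.

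**Figure D4:**
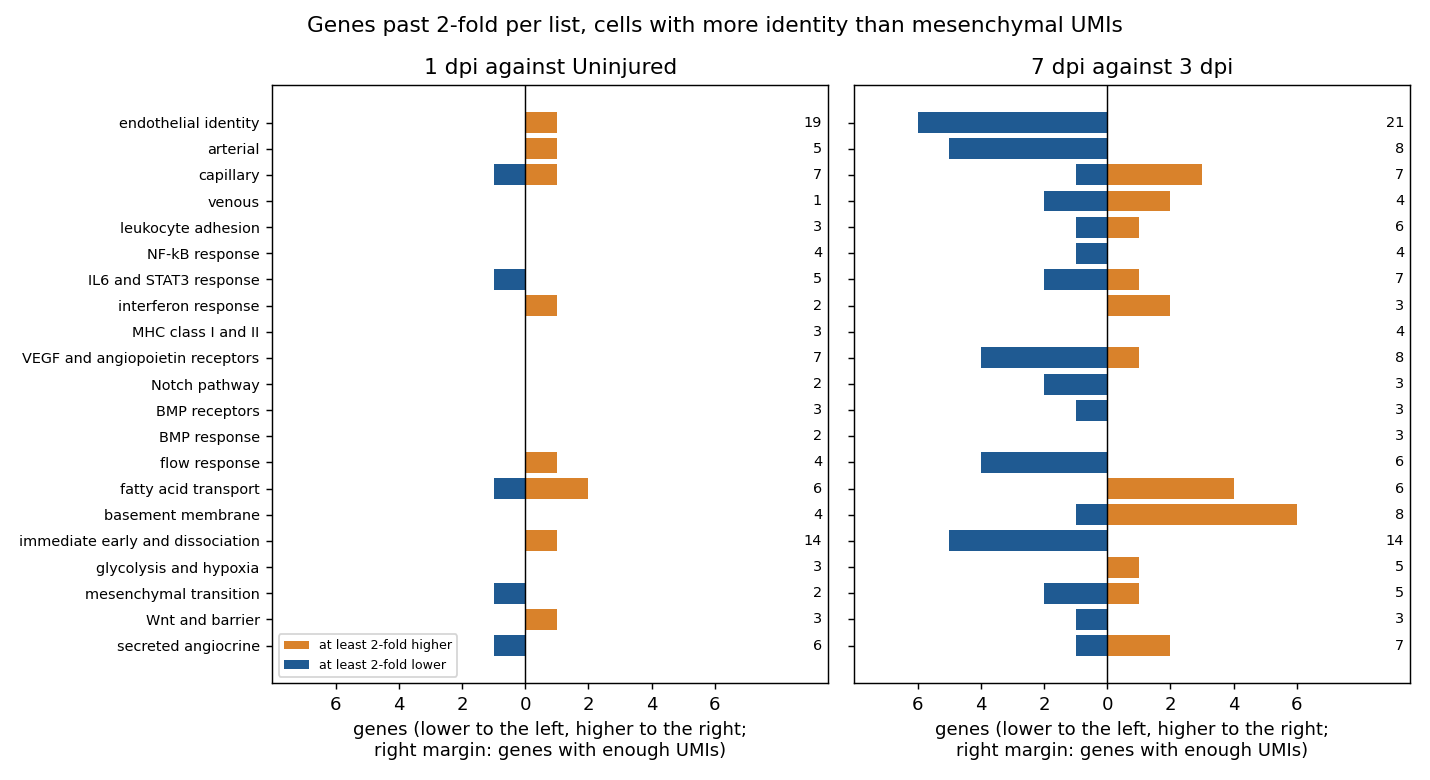
Number of genes at least 2-fold higher (right of 0) or lower (left of 0) in endothelial-dominant cells, at 1 dpi against uninjured muscle and at 7 against 3 dpi, for lists with 3 or more genes of 100 or more UMIs in the second comparison; the numbers at the right edge are the genes tested. At 7 against 3 dpi, 5 arterial genes are lower and 6 basement membrane genes are higher.

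Genes that bind leukocytes were not alike over time. Vcam1, an adhesion molecule for lymphocytes and monocytes, had 57.5 CPM in uninjured muscle (4 cells), 252 CPM at 1 dpi (13 cells), 390 CPM at 3 dpi (21 cells) and 68.6 CPM at 7 dpi (6 cells). Its 72 UMIs at 1 dpi against 6 in uninjured muscle were under the filter of 100 and gave a ratio of 4.39 (1.92 to 12.4), and it was 5.68-fold lower at 7 than at 3 dpi (3.504 to 9.655). Selp, P-selectin of venous endothelium, had 28.7, 42.1, 156 and 330 CPM from 2, 2, 14 and 9 cells and was 2.11-fold higher at 7 dpi (1.47 to 3.09). Lrg1, a secreted glycoprotein of venous endothelium, was 4.76-fold higher at 7 dpi (3.02 to 7.81), with UMIs in 17 of 58 cells. Of 3 leukocyte adhesion genes tested at 1 dpi against uninjured muscle, 0 passed 2-fold. Of 6 tested at 7 against 3 dpi, Selp was higher and Vcam1 lower, and the others lay within 2-fold. Among interferon genes, Iigp1, a GTPase against intracellular pathogens, was 2.18-fold higher at 1 dpi (1.54 to 3.16), while the 121 UMIs of the chemokine Cxcl10 at 7 dpi came from 6 cells. All 161 UMIs of Gal, a neuropeptide with one of the highest ratios at 7 dpi, came from 1 cell.

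The BMP pathway was of interest because all mice carried a Bmp4 transgene. Id1 and Id3, inhibitors of basic helix-loop-helix factors and direct targets of BMP receptors, were highest in uninjured muscle. Id1 had 872, 530, 531 and 343 CPM in endothelial-dominant cells and Id3 had 1178, 621, 691 and 508 CPM. At 7 dpi against uninjured muscle Id1 was 2.54-fold lower (1.89 to 3.41) and Id3 2.32-fold lower (1.81 to 2.97), and they were the only 2 of the 9 BMP response genes with enough UMIs. Over all selected cells 3 were tested, and Id1 alone was at least 2-fold lower, with Id3 1.49-fold lower. Of 3 BMP receptors tested at 7 against 3 dpi, Bmpr2 was at least 2-fold lower. Bmp4 itself, a secreted ligand, had 115, 116, 244 and 41.2 CPM and Bmp6 had 57.5, 231, 106 and 24.0 CPM, and transgene and native Bmp4 were not told apart here. Promoter windows were found for 6 BMP response genes, and the motif GGCGCC was in 3 of them and CAGACA in 0, each sought on both strands, against 11.9% and 21.0% of 32851 RefSeq windows. The 3 were those of Id2, Id4 and Smad9. The window of Id3 held neither motif, and that of Id1 was not analysed here.

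Against uninjured muscle, the 7 dpi library had 32 of 589 genes (5.43%) at least 2-fold higher in endothelial-dominant cells and 32 (5.43%) at least 2-fold lower. These cells held 291343 UMIs at 7 dpi against 104385 in uninjured muscle, so the filter was uneven here too. Of 6 basement membrane genes, 4 were higher (Col4a1, Col4a2, Col15a1 and Col18a1) and none lower, with Col4a1 3.05-fold higher (2.46 to 3.83). Of 4 arterial genes, 2 (Sema3g and Gkn3) were lower, Gkn3 15.4-fold (9.69 to 25.4). Igfbp7, which was lowest at 3 dpi at 503 CPM, had 2079 CPM in uninjured muscle and 5228 CPM at 7 dpi, 2.51-fold higher (2.18 to 2.91). Vwf, the clotting protein of Weibel-Palade bodies, had 814, 508, 705 and 261 CPM over the 4 libraries. In all selected cells 119 of 1999 genes (5.95%) were higher and 161 (8.05%) lower. There 1 of 11 basement membrane genes (Col18a1) was higher and 2 (Lamb2 and Nid1) lower, and the list's summed CPM had a ratio of 0.727 (0.704 to 0.750) against 2.10 (1.92 to 2.30) in endothelial-dominant cells. The comparisons of 7 dpi with 3 dpi and with uninjured muscle share the 7 dpi library.

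Tek encodes Tie2, the angiopoietin receptor whose promoter drives the Cre used to trace cells in the study. The gene lies on chromosome 4 from 94739289 to 94874976 on the plus strand (GRCm38). Endothelial-dominant cells had 326 CPM of Tek in uninjured muscle (14 of 27 cells with a UMI), 316 CPM at 1 dpi (37 of 64), 383 CPM at 3 dpi (55 of 92) and 158 CPM at 7 dpi (25 of 58). It was 2.42-fold lower at 7 than at 3 dpi (1.701 to 3.501). The mesenchymal cells had 81.4, 76.6, 21.9 and 8.12 CPM, and 4028 of 7789, 1466 of 3203, 1065 of 5110 and 469 of 7000 of them held a UMI. Tek was one of the 23 identity genes that chose the endothelial-dominant cells, so their higher level follows in part from that choice. The mesenchymal level was lowest at 7 dpi. Mural cells, defined by 3 or more UMIs of Rgs5, Kcnj8, Abcc9, Myh11 and Notch3, had 16.4, 26.4, 8.74 and 4.26 CPM, and barcodes with a Ptprc UMI 17.1, 12.6, 6.44 and 3.74 CPM. Lymphatic endothelial cells, with a Prox1 UMI beside the rule genes, had 6, 1, 5 and 4 UMIs of Tek in 12, 2, 18 and 8 cells. In all selected cells Tek had 113, 279, 197 and 70.7 CPM.

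**Figure D5:**
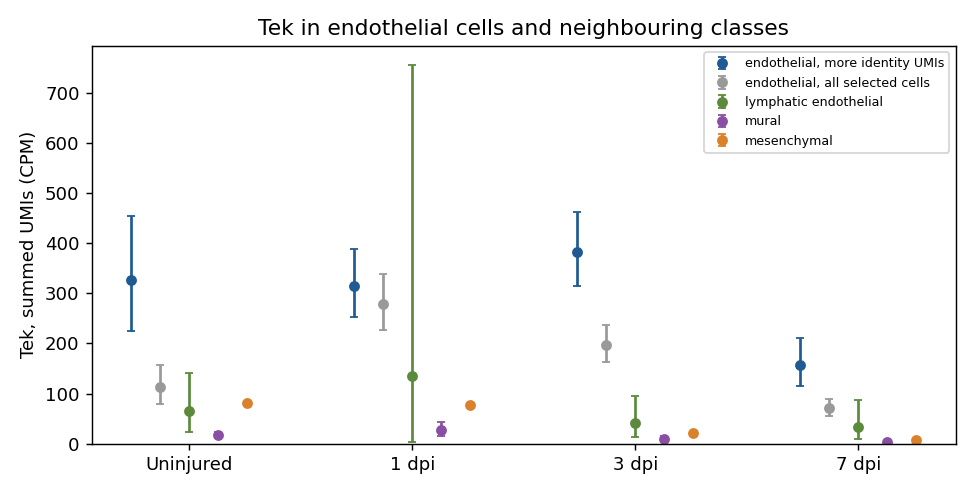
Summed UMIs of Tek in CPM (vertical axis, from 0) in each library for endothelial-dominant, all selected, lymphatic endothelial, mural and mesenchymal cells, with exact 95% Poisson intervals. Endothelial-dominant cells lie between 158 and 383 CPM and mesenchymal cells between 8.12 and 81.4 CPM; Tek was among the genes that chose the endothelial-dominant cells.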

How the data were processed

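The deposited files hold raw UMI counts per gene and barcode. Per the labels and the submitters' processing notes, the authors made them with Cell Ranger 5.0.0 and STAR on mm10 and name Seurat 3.1.1; a down-sampling of reads is mentioned, and whether these counts precede it is not given in the sources used here. Barcodes over the mitochondrial limit of 10% were left out, and the endothelial rule was applied to the raw counts. Members and gene lists were chosen with earlier results of these data known. Counts were summed per library, and divided by the summed total to give CPM. A gene counted as higher or lower when its ratio passed 2-fold with at least 100 UMIs over both libraries, and a total of 0 was set to 3 UMIs. Named genes were list genes, Tek, the 12 largest ratios in each direction per successive comparison, leaving out genes more abundant in other barcodes, and the 10 most like the rule genes; others were chosen after their values were seen. A few genes that this rule names are not reported here. Doublets were not removed from the main result, and Scrublet was run as an alternative. Clustering used scanpy 1.11.5 with 1000 variable genes, 20 components and Leiden resolution 0.5. Scripts were tested on simulated data.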

Additional observations from a re-analysis of the deposited data

Results flagged for a closer look

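Barcodes that met the limit of 3 UMIs of the rule genes but carried a Ptprc UMI were outside the comparisons. They made up 0.451% of barcodes at 1 dpi, 0.191% at 3 dpi and 0.0565% at 7 dpi, each above the 0.00846% of uninjured muscle, which was 1 barcode. Of the 49 such barcodes at 1 dpi, 16 had a Pecam1 UMI, 28 a Lyz2 UMI and 27 a Cd68 UMI. What these barcodes hold was not tested.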

How the results depend on the processing

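With 1 library at each time point no spread between animals could be measured, and the few cells at each time limit every gene named. No paired analysis was possible because each time point has 1 library. The share of selected cells, with values for uninjured muscle, 3 dpi and 7 dpi, was 0.600%, 1.01% and 0.908% at a rule minimum of 2 UMIs, 0.211%, 0.545% and 0.317% at 6 UMIs, 0.245%, 0.623% and 0.300% without any UMI of Pdgfra, Pdgfrb or Prrx1, and 0.186%, 0.506% and 0.440% in cells thinned to 2000 UMIs, where 1 dpi was highest at 0.587%. The split into endothelial-dominant cells, added after the data were seen, gave 0.228%, 0.652% and 0.252%. A mitochondrial limit of 5% gave 0.683% at 3 dpi, and of barcodes without a Ptprc UMI the share was 1.43%, 1.32% and 0.725% at 1, 3 and 7 dpi.

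The number of genes past 2-fold was 365 at 1 dpi against uninjured muscle, 248 at 3 against 1 dpi, 337 at 7 against 3 dpi and 280 at 7 dpi against uninjured muscle. In that order it was 64, 35, 190 and 64 in endothelial-dominant cells, 97, 49, 210 and 67 without any UMI of Pdgfra, Pdgfrb or Prrx1, 43, 20, 78 and 33 in thinned cells, 1294, 868, 1044 and 956 with a filter of 30 UMIs, and 93, 72, 112 and 96 with one of 300 UMIs. A rule minimum of 2 UMIs gave 619 and 454 in the first and last comparison, and one of 6 UMIs gave 118, 125 and 153 in all but that of 7 against 3 dpi. With each cell weighted equally the count was 118 at 3 against 1 dpi and 558 at 7 against 3 dpi, and the 2 SD filters with Scrublet gave 165 at 3 against 1 dpi.

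Several values past 2-fold turned direction at 1 dpi against uninjured muscle, given as log2 ratios. Without stromal UMIs, in endothelial-dominant cells and in thinned cells, the arterial list had -0.14, -0.16 and -0.14 and Cytl1 -0.12, -0.11 and -0.14. Gpihbp1 had -0.058 without stromal UMIs, -0.13 in endothelial-dominant cells and -0.14 with equal weights. Tek had -0.045 in endothelial-dominant cells, and thinning gave -0.17 for the venous and 0.059 for the basement membrane list. Past 2-fold in all selected cells, the summed ratio of the lymphatic list at 7 dpi against uninjured muscle went from 0.285 to 1.36 in endothelial-dominant cells and that of the rule genes at 1 dpi from 2.01 to 0.930. Among lists within 2-fold in all selected cells some also turned. Between all selected and endothelial-dominant cells the ratio of the basement membrane list went from 0.727 to 2.10 at 7 dpi against uninjured muscle and from 1.40 to 0.916 at 3 against 1 dpi, that of venous genes from 0.898 to 1.31 at 3 against 1 dpi, and at 7 against 3 dpi that of chemokines and cytokines from 0.922 to 2.03 and of interferon genes from 0.913 to 1.62. The cause was not tested.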
